A study of Mus musculus with 8 samples.

Results

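The 5 genes described here encode RNA-binding proteins of the nucleus and cytoplasm: the RNA helicases Ddx5, Ddx17 and Dhx15, the heterogeneous nuclear ribonucleoprotein Hnrnpu and the splicing regulator Celf2. They were taken from the authors' deposited table of sites at which RNA methylation differed between aged and young mouse cortex cells, as all rows that carry one of these 5 gene names. That gave 19 of the table's 2055 sites, in 5 of its 789 genes. Hnrnpu had 7 sites, Ddx5 had 6, Celf2 had 4, and Ddx17 and Dhx15 had 1 each.

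The aged cells came from the cortex of mice of genotype APOBEC1-YTH that were 12 to 14 months old when tamoxifen treatment began. The dose was 20 mg/kg every 24 h for 5 days, and tissue was taken 7 days after the last dose. The young cells come from a companion series and were used only as the authors' table gives them. Their age and treatment, the number of mice of either age and the promoter of the transgene are unknown here. All 8 libraries analysed here were aged, as 4 lanes of each of 2 sublibraries, and no label says that they came from separate mice. The table holds 1 pooled value per age, over 846 aged and 2623 young cells, and does not separate cell types. No value below therefore has a replicate error, and no test was added to the authors' own. Read depth per site is unknown, so the number of methylated cells is the measure of precision that can be given.

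N6-methyladenosine (m6A) is placed on messenger RNA by the Mettl3 and Mettl14 methyltransferase complex, mostly within DRACH motifs (D being A, G or T, R being A or G, and H being A, C or T), and is bound by YTH domain proteins. In this assay, scDART-seq, a cytidine deaminase fused to a YTH domain turns the C that follows a methylated A into U, and such changes in the reads mark m6A in single cells. In brain the mark is abundant, and it is enriched in long exons and in 3' UTRs near the stop codon. For each site and age the table gives the share of cells called methylated, the mean C-to-U over all cells and the number of methylated cells. The mean divided by the share gives the C-to-U within methylated cells, called per-cell editing below. A cell without reads at a site counts as unmethylated, so a larger share of methylated cells cannot be told apart from a larger share of cells with reads there.

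Positions and sequences refer to the GENCODE M21 annotation of GRCm38, the assembly also called mm10, and all 5 genes lie on the minus strand. A site is called by its base in the spliced transcript, which was 3559 bases long for Ddx5, 4732 for Ddx17, 3010 for Dhx15, 7640 for Hnrnpu and 8856 for the Celf2 transcript that holds all 4 of its sites. The 29 bases centred on the edited C are shown for the 3 sites with the largest increases in mean C-to-U, in percentage points, among the 19, for the site shared by Ddx5 and Ddx17 with its Ddx5 neighbour, and for 4 sites with lower means in which the C does not lie in the usual context or lies at an exon border. Capitals mark the edited C, which is the last capital, and the 2 bases before it.
Hnrnpu base 538: ctgggcgaggagAACggggcggcgggggc
Dhx15 base 315: gaggagacagagAACgggagagggaaaaa
Celf2 base 170: gccaacaagatgAACggagctttggatca
Ddx5 base 1247: gaaggagaataaAACtattgtttttgttg
Ddx17 base 1522: aaaggaaaataaGACtataatatttgtgg
Ddx5 base 1265: tgtttttgttgaAACcaaaagaagatgtg
Hnrnpu base 807: cgcggtgacggtGGCgccgccaggggcga
Hnrnpu base 836: ggcagggccaacAGCaggcgggaggagac
Hnrnpu base 850: caggcgggaggaGACggcaaaacagaaca
Celf2 base 3744: aaaaaaaagaatTTCaaaaaaaaaagttg
These runs lie at chr1:178337246-178337274 for Hnrnpu base 538, chr5:52184810-52184838 for Dhx15, chr2:6721575-6721603 for Celf2 base 170, chr11:106784463-106784491 for Ddx5 base 1247, chr15:79537484-79537512 for Ddx17, chr11:106784445-106784473 for Ddx5 base 1265, chr1:178336977-178337005 for Hnrnpu base 807 and chr2:6544803-6544831 for Celf2 base 3744. The runs of Hnrnpu bases 836 and 850 cross the border of exons 1 and 2 and have no single interval.

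At most of the 19 sites the methylated share was larger in aged cells and per-cell editing was lower. By the share of methylated cells, aged cells were above young cells at 18 sites, against 75.4% of all listed sites. By per-cell editing they were above young cells at 3 sites, against 31.9% of all listed sites with a methylated aged cell. By mean C-to-U, aged cells were above young cells at 9 sites and below them at 10, against 41.5% of all listed sites higher. Of the 19 sites 16 were coding, and the 796 listed coding sites are therefore the closer comparison. By share of methylated cells, 16 of the 16 were higher in aged cells, near the 94.7% of listed coding sites. By mean, 8 of the 16 were higher, near the 58.0% of listed coding sites for so few sites, and by per-cell editing 3 of the 16, against 35.6%. Every listed site had passed the authors' filters on size and on their adjusted p, and 7.06% of the 29127 sites that their adjustment implies are listed, so the counts describe listed sites and not these genes' RNA as a whole. The adjusted p of the 19 sites in the authors' deposited table lay between 3.38e-54, at Ddx5 base 1265, and 0.00579, at Hnrnpu base 2074. Whether the authors' test compared means or shares is not stated in the sources. Where mean and share differ in direction, the adjusted p therefore cannot be assigned to either.

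**Figure D1:**
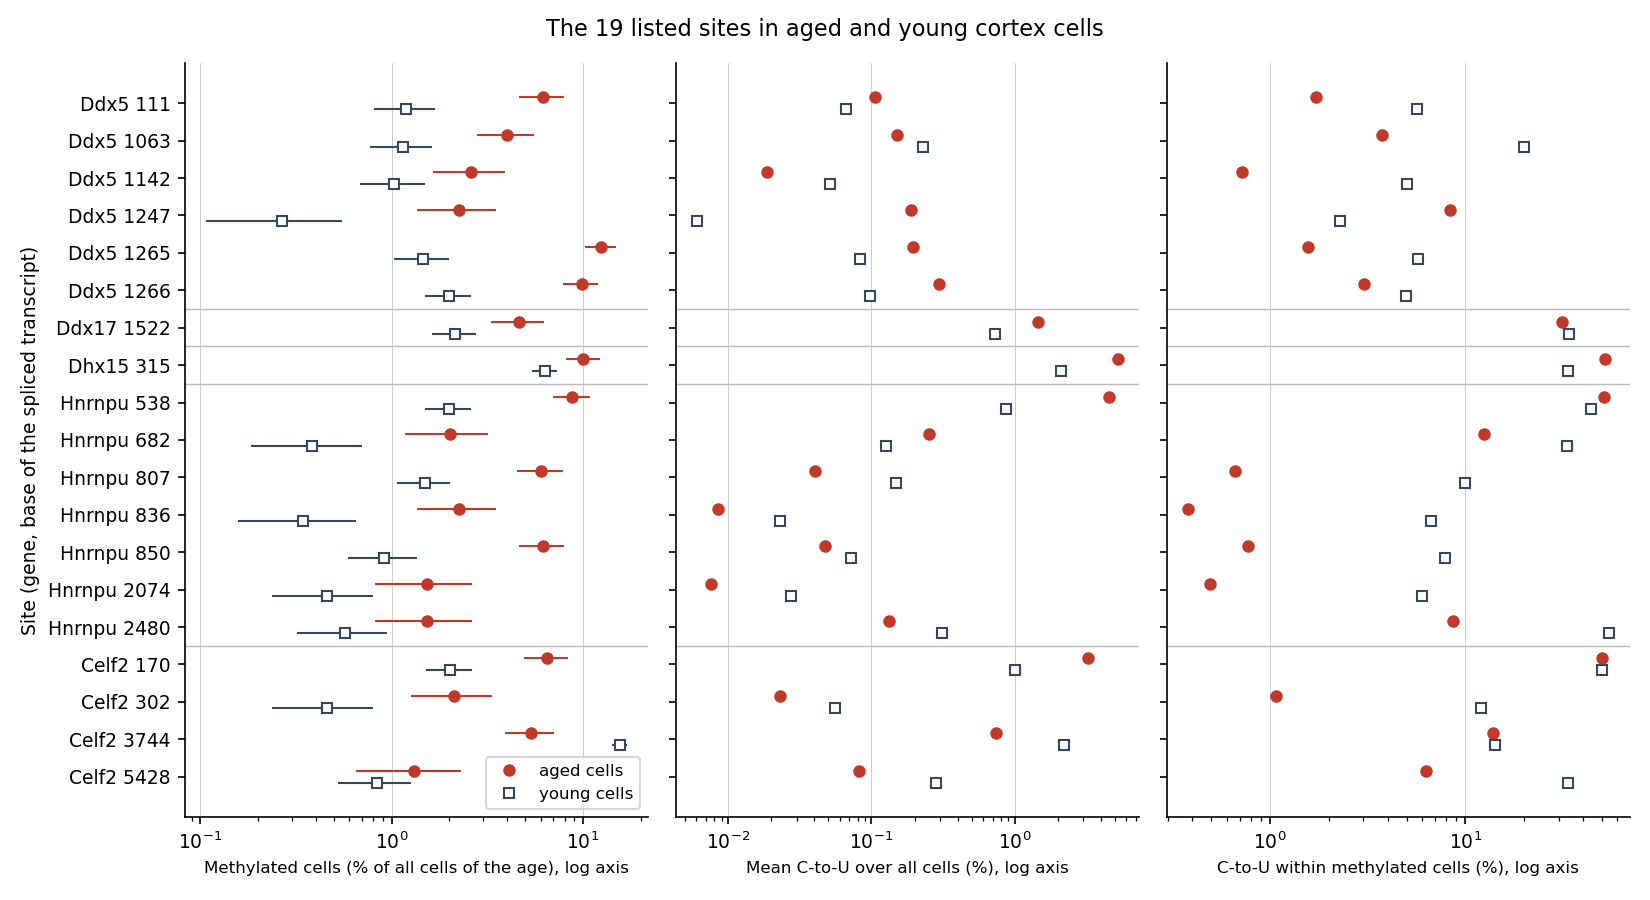
Share of methylated cells (left, with exact 95% intervals), mean C-to-U over all cells (middle) and per-cell editing (C-to-U within methylated cells, right) at the 19 sites, in percent on log axes, for aged (filled circles) and young cells (open squares). The share is higher in aged cells at 18 sites, while per-cell editing is higher in aged cells at 3.

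The median log2 ratio (aged over young) of the 19 sites was 2.02 for the share of methylated cells, -1.86 for per-cell editing and -0.60 for mean C-to-U. For all 2036 listed sites that had methylated aged cells, the corresponding medians were 1.14, -0.84 and -0.87. Among coding sites alone the 16 members had medians of 2.08, -2.13 and 0.20. The 789 listed coding sites with methylated aged cells had 1.63, -0.62 and 0.97. By mean the coding members were split, 8 higher and 8 lower in aged cells. Their median of 0.20 thus falls between the 2 directions, below the smallest absolute log2 ratio that the table lists, 0.58, where no site can lie. A lower mean together with a higher share in aged cells was seen at 9 of the 19 sites, against 35.3% of all listed sites. The exact 95% intervals of the shares lay apart at 17 of the 19 sites, 16 with aged cells higher and 1 with aged cells lower, against 62.5% of all listed sites. Aged cells were the higher at 47.4% and the lower at 15.1% of all listed sites. These listed rates cover all regions, and none was computed for coding sites alone. The member sites also had more methylated aged cells, a median of 39 against 21 at all listed sites. These intervals cover the counting of cells and nothing else. When each gene was represented by its site of largest absolute difference in mean C-to-U, 5 of 5 genes were higher in aged cells. Of all listed genes, with sites of any region, 55.8% were. The sites so chosen in the 5 genes were all coding. This choice sets aside the lower means at 5 of 7 Hnrnpu sites and 3 of 4 Celf2 sites. For Ddx5 it took base 1266, whose C does not follow an A and whose surrounding bases also occur in a pseudogene.

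**Figure D2:**
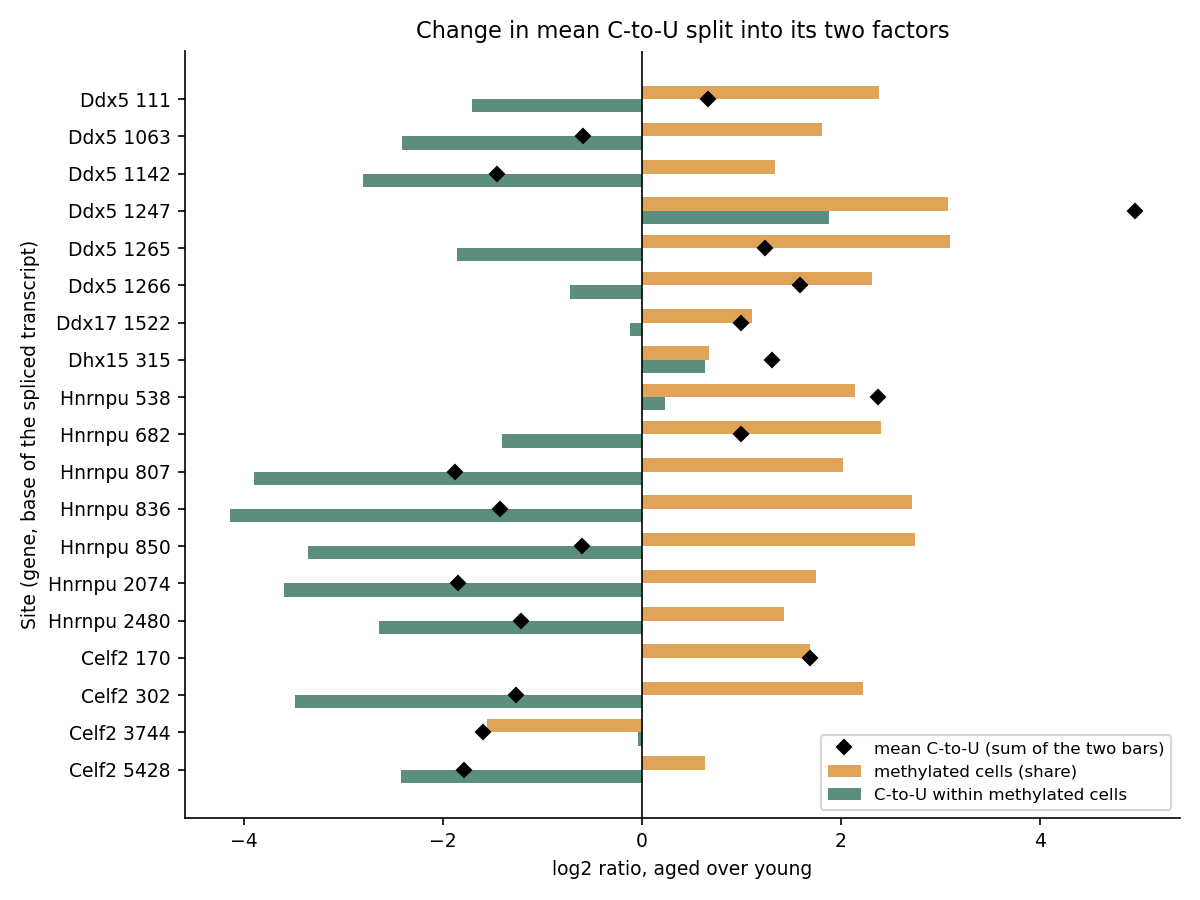
Log2 ratios, aged over young, of the share of methylated cells and of per-cell editing (bars), and of their product, the mean C-to-U (diamonds), for the 19 sites. Both bars point to aged cells at Ddx5 base 1247, Dhx15 base 315 and Hnrnpu base 538, and both point to young cells at Celf2 base 3744.

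Ddx5 encodes a DEAD box helicase (p68) that unwinds RNA in splicing, transcription and microRNA processing. Its 6 sites all had a higher share of methylated cells in aged cells, and 4 had a higher mean. Of the 6, 5 lay in coding sequence in exons 8 and 9 of 13, and the other lay in the 5' UTR. None of the 6 lay in its 3' UTR, which makes up most of the 1902-base last exon.

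Ddx5 base 1247 (chromosome 11, position 106784477, exon 9) had the largest ratio among the 19 sites. Mean C-to-U was 0.188% in aged and 0.00607% in young cells, a log2 ratio of 4.95, and the authors' deposited table gave an adjusted p of 1.14e-09. The methylated share was 2.25% (1.36 to 3.49) of aged and 0.267% (0.107 to 0.549) of young cells. The young value is the lowest mean of young cells in the table and rests on 7 methylated cells, against 19 aged ones. Per-cell editing was 8.35% in aged and 2.27% in young cells, so that of the 6 Ddx5 sites this 1 was higher by all 3 measures.

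Ddx5 bases 1265 and 1266 are adjacent C in the same exon, 18 and 19 bases further on, so they share most of their reads. At base 1265 (position 106784459) 105 aged and 38 young cells were methylated, shares of 12.4% (10.3 to 14.8) of aged and 1.45% (1.03 to 1.98) of young cells. That aged share was the highest of the 19 sites. Mean C-to-U there was 0.195% in aged and 0.0827% in young cells, while per-cell editing was 1.57% in aged and 5.71% in young cells. At base 1266 (position 106784458) 83 aged and 52 young cells were methylated, shares of 9.81% (7.89 to 12.0) of aged and 1.98% (1.48 to 2.59) of young cells. Per-cell editing at base 1266 was 3.02% in aged and 4.96% in young cells, and the mean was 0.296% in aged and 0.0983% in young cells. Base 1265 follows an A in the context AAC, and base 1266 follows base 1265. The authors' deposited table lists adjusted p of 3.38e-54 for base 1265 and of 2.57e-30 for base 1266. The 41 bases around each also occur on the sense strand of Gm32526, a processed pseudogene on chromosome 13 with no listed site, so reads may have been split between these loci.

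Of the remaining Ddx5 sites, 2 lay in exon 8 and had lower means in aged cells. In exon 8, base 1063 (position 106785016) had a mean of 0.151% in aged and 0.228% in young cells, from 34 aged and 30 young methylated cells, and per-cell editing was 3.75% in aged and 19.9% in young cells. Its absolute log2 ratio of 0.60 lay just above the smallest that the table lists, 0.58, and its surrounding 41 bases also occur in Gm12183, a processed pseudogene on chromosome 11. Base 1142 (position 106784937) had a mean of 0.0187% in aged and 0.0516% in young cells, and per-cell editing was 0.721% in aged and 5.01% in young cells. Its methylated share was 2.60% (1.64 to 3.91) of aged and 1.03% (0.679 to 1.49) of young cells, from 22 aged and 27 young cells. At both exon 8 sites the C does not follow an A. In the 5' UTR, base 111 (position 106788422) had a mean of 0.106% in aged and 0.0669% in young cells, from 52 aged and 31 young cells, and per-cell editing was 1.73% in aged and 5.66% in young cells.

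Ddx17 encodes p72, the closest relative of Ddx5 and its partner in splicing and microRNA processing. Its listed site, base 1522 (chromosome 15, position 79537498), lies in exon 9 of 13. It is the 48th base of an exon of 111 bases, and Ddx5 base 1247 is likewise the 48th base of an exon 9 of 111 bases. The exons are 73.0% identical, at 81 of 111 bases, and 22 of the 29 bases printed above are the same. Both sites have an A before the C and match DRACH, as AAACT in Ddx5 and AGACT in Ddx17.

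The levels at this shared place differed between the genes. Mean C-to-U at the Ddx17 site was 1.44% in aged and 0.726% in young cells, a log2 ratio of 0.99, and its adjusted p in the authors' deposited table was 0.000653. The methylated share was 4.61% (3.30 to 6.25) of aged and 2.13% (1.62 to 2.76) of young cells, from 39 aged and 56 young cells. Per-cell editing was 31.3% in aged and 34.0% in young cells, so the higher mean at Ddx17 lay in the share of cells. At the same place Ddx5 had fewer methylated cells in both ages, with per-cell editing of 8.35% in aged and 2.27% in young cells. No listed Ddx17 site corresponds to Ddx5 bases 1265 and 1266. The 3 bases that end at place 66 of the exon, that of Ddx5 base 1265, are AAC in Ddx5 and GAC in Ddx17, and those that end at place 67 are ACC in Ddx5 and ACA in Ddx17.

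Dhx15 encodes a DEAH box helicase that takes apart spliceosomes after splicing, as its yeast counterpart Prp43 does. Its listed site, base 315 (chromosome 5, position 52184824, exon 2 of 14, coding), had the highest mean of the 19 sites in aged cells. Mean C-to-U was 5.24% in aged and 2.11% in young cells, a log2 ratio of 1.31, listed with 1.04e-11 as adjusted p in the authors' deposited table. The methylated share was 10.0% (8.10 to 12.3) of aged and 6.29% (5.39 to 7.29) of young cells, from 85 aged and 165 young cells. Per-cell editing was 52.1% in aged and 33.5% in young cells. The log2 ratio of the mean thus came from the share (0.68) and from per-cell editing (0.64) in nearly equal parts. In the ranking of all 2055 listed sites by absolute difference in mean, this site stood at place 84.

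**Figure D3:**
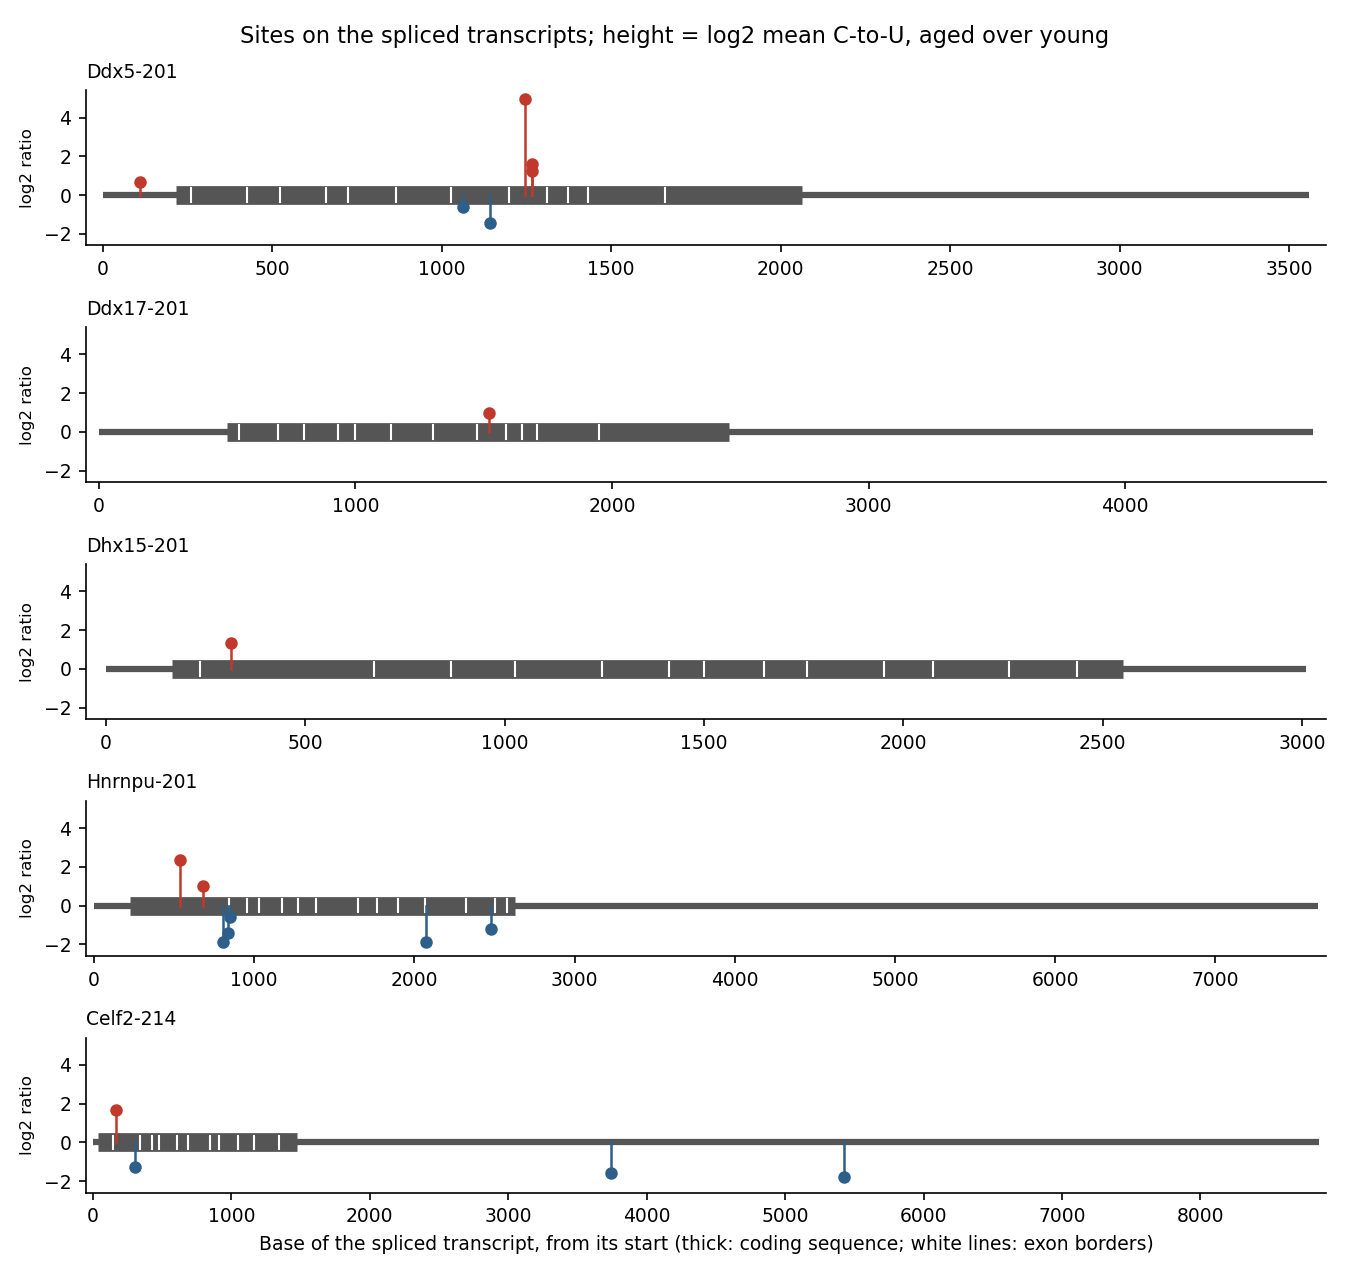
Position of the 19 sites along the spliced transcripts, in bases from the transcript start, with coding sequence drawn thick and exon borders as white lines; the height of each mark is the log2 ratio of mean C-to-U, aged over young (red higher, blue lower in aged cells). The higher sites of Hnrnpu and Celf2 lie nearest the start of their transcripts, and the 2 sites in the Celf2 3' UTR are lower.

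Hnrnpu encodes SAF-A, an abundant nuclear protein that binds RNA and chromatin and takes part in splicing. Its 7 sites all lay in coding sequence, 4 of them in exon 1, and all had a higher share of methylated cells in aged cells. By mean C-to-U, aged cells were above young cells at 2 sites and below them at 5. Along the transcript, the 2 higher sites came before the 5 lower ones.

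Hnrnpu base 538 (chromosome 1, position 178337260) had the largest difference in mean C-to-U among the 19 sites and stood at place 60 of 2055. Its mean was 4.51% in aged and 0.870% in young cells, a log2 ratio of 2.37, and in the authors' deposited table its adjusted p was 6.43e-09. The methylated share was 8.75% (6.93 to 10.9) of aged and 1.98% (1.48 to 2.59) of young cells, from 74 aged and 52 young cells. Per-cell editing was 51.5% in aged and 43.9% in young cells. Base 682 (position 178337116) was the other site with a higher mean, 0.251% in aged and 0.126% in young cells, with 17 aged and 10 young methylated cells. Its methylated share was 2.01% (1.17 to 3.20) of aged and 0.381% (0.183 to 0.700) of young cells, and per-cell editing was 12.5% in aged and 33.1% in young cells.

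The 5 Hnrnpu sites with lower means each had a higher methylated share and lower per-cell editing in aged cells. At base 807 (position 178336991) the methylated share was 6.03% (4.52 to 7.85) of aged and 1.49% (1.06 to 2.03) of young cells, and per-cell editing was 0.666% in aged and 9.92% in young cells. The authors' deposited table lists an adjusted p of 2.60e-11 for base 807, without stating whether it refers to the mean or to the share. The mean at base 807 was 0.0401% in aged and 0.147% in young cells. That mean sits below the young one although the methylated share in aged cells was 4.05-fold that in young cells. At base 850 (position 178336154, the 5th base of exon 2) the methylated share was 6.15% (4.62 to 7.98) of aged and 0.915% (0.587 to 1.36) of young cells, and per-cell editing was 0.770% in aged and 7.86% in young cells. The mean there was 0.0474% in aged and 0.0719% in young cells. At base 836 (position 178336962, in exon 1 with 9 bases left before its end) the methylated share was 2.25% of aged and 0.343% (0.157 to 0.650) of young cells, from 19 aged and 9 young cells. Per-cell editing there was 0.379% in aged and 6.66% in young cells, the lowest aged value of the 19 sites, and the mean was 0.00852% in aged and 0.0228% in young cells. Bases 836 and 850 are 808 bases apart in the genome but 14 apart in the spliced transcript, so a spliced read can cover both.

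Further along Hnrnpu, base 2074 (position 178330839, exon 11 of 14) had 13 aged and 12 young methylated cells, together 25, the fewest that the table lists. Its per-cell editing was 0.493% in aged and 5.98% in young cells, and its mean was 0.00758% in aged and 0.0273% in young cells. Base 2480 (position 178330188, exon 12) had 13 aged and 15 young methylated cells, with per-cell editing of 8.67% in aged and 54.2% in young cells and a mean of 0.133% in aged and 0.310% in young cells. The shares at base 2480, 1.54% (0.821 to 2.61) of aged and 0.572% (0.320 to 0.941) of young cells, have overlapping intervals. Base 2480 was the member site closest to a stop codon, at 149 bases before the end of the coding sequence.

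Celf2 encodes an RNA-binding protein that controls alternative splicing and the stability of messenger RNA in brain and muscle. It was the member gene with sites in both coding sequence and 3' UTR, and the 3' UTR held the site with the opposite direction of share. Base 170 (chromosome 2, position 6721589, exon 2 of 12) was the site with a higher mean, 3.24% in aged and 1.01% in young cells, a log2 ratio of 1.69, with 1.33e-07 as the adjusted p in the authors' deposited table. The methylated share was 6.50% (4.93 to 8.38) of aged and 2.02% (1.52 to 2.63) of young cells, from 55 aged and 53 young cells. Per-cell editing was 49.8% in both ages, so the higher mean lay in the share of cells. At base 302 (position 6721457) in the same exon, the methylated share was 2.13% (1.27 to 3.34) of aged and 0.457% (0.237 to 0.798) of young cells, and per-cell editing was 1.08% in aged and 12.1% in young cells. The mean at base 302 was lower in aged cells, 0.0230% in aged and 0.0552% in young cells, from 18 aged and 12 young methylated cells.

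The Celf2 3' UTR lies in a last exon of 7509 bases. Base 3744 (position 6544817), 2269 bases past the end of the coding sequence, was the 1 member site with a lower share of methylated cells in aged cells. The methylated share was 5.32% (3.91 to 7.05) of aged and 15.6% (14.2 to 17.0) of young cells, from 45 aged and 409 young cells. Per-cell editing was 13.8% in aged and 14.2% in young cells, so the lower mean, 0.734% in aged and 2.21% in young cells, lay in the share. Its adjusted p was 0.00208 in the authors' deposited table. The C at this site follows a T, and the printed run shows it between long stretches of A. Base 5428 (position 6543133), 3953 bases past the coding sequence, had a mean of 0.0815% in aged and 0.281% in young cells, from 11 aged and 22 young cells, and per-cell editing was 6.27% in aged and 33.6% in young cells. Its shares, 1.30% (0.651 to 2.31) of aged and 0.839% (0.526 to 1.27) of young cells, have overlapping intervals. Exons of 23 of the 28 annotated Celf2 transcripts hold the coding sites, while 7 hold base 3744 and 5 hold base 5428.

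**Figure D4:**
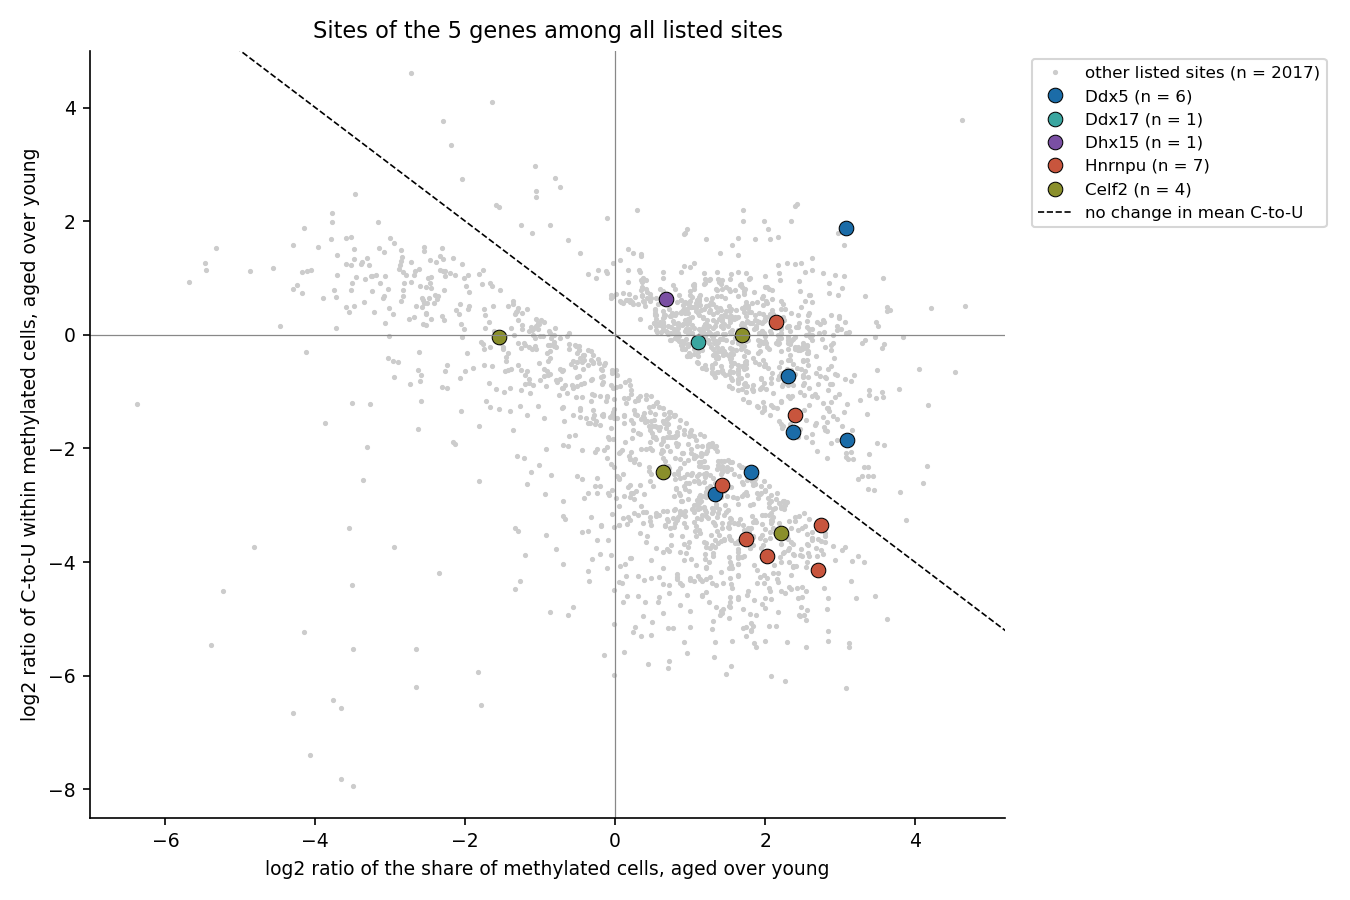
Log2 ratio of the share of methylated cells (horizontal) and of per-cell editing (vertical), aged over young, for the 2036 listed sites with a methylated aged cell, with the sites of the 5 genes in colour. The dashed line marks no change in mean C-to-U; 9 member sites lie above it and 10 below, and 1, in Celf2, lies left of the vertical line. The empty band along the dashed line is the authors' filter on small ratios.

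The base before the edited C was compared next, since the assay edits the C after a methylated A. The C followed an A at 11 of the 19 member sites, against 76.9% of the 1956 listed sites placed with a C at the edited base. It lay in DRAC, the part of the m6A motif up to that C, at 9 of 19, against 65.0%. The full motif DRACH was matched at 4 of 19, against 46.2%. Among coding sites alone the C followed an A at 9 of 16 member sites, against 80.4% of listed sites. It lay in DRAC at 7 of 16, against 69.5%, and DRACH was matched at 3 of 16, against 34.3%. By mean C-to-U, 8 of the 11 sites after an A were higher in aged cells, as was 1 of the 8 others, Ddx5 base 1266. Over all listed sites the same split gave 704 of 1504 sites after an A and 127 of the 452 others. Among coding sites after an A, 7 of 9 member sites and 415 of 640 listed sites were higher. Among coding sites without an A, 1 of 7 member sites and 47 of 156 listed sites were higher. The other member sites without an A were Ddx5 bases 1063 and 1142, Hnrnpu bases 807, 836, 2074 and 2480, and Celf2 base 3744.

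**Figure D5:**
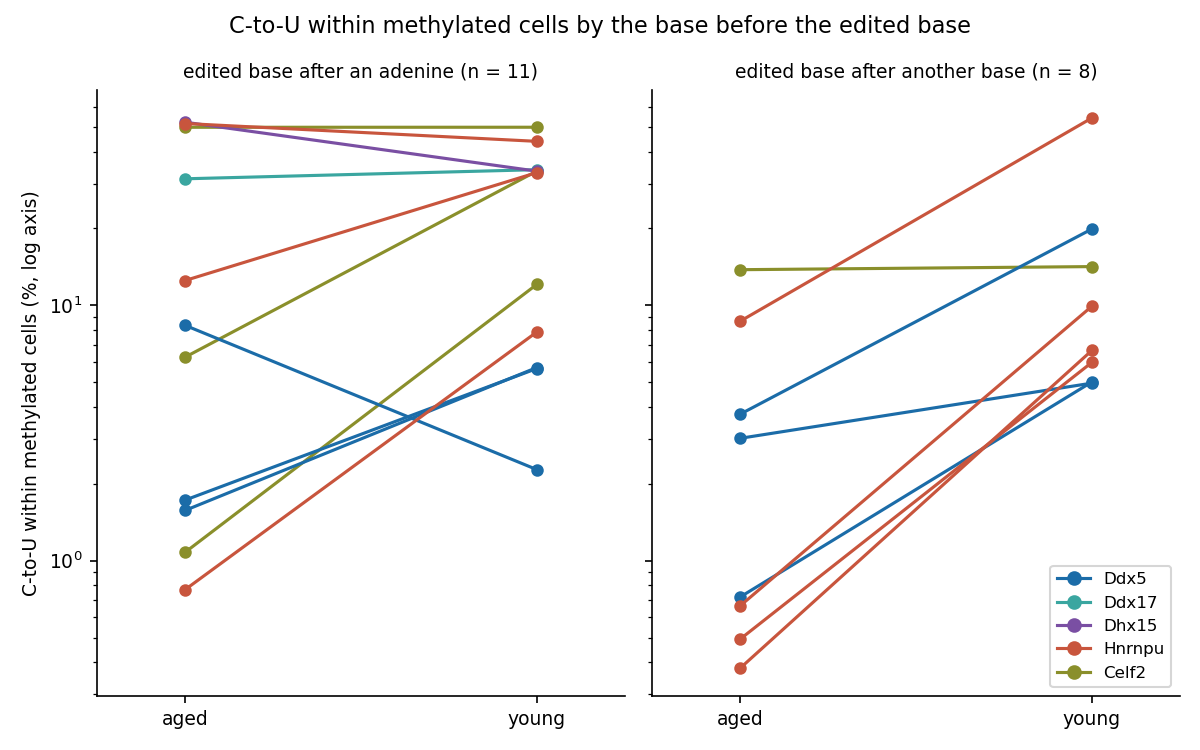
Per-cell editing (C-to-U within methylated cells), in percent on a log axis, in aged and young cells for the 11 member sites whose edited base follows an adenine (left) and the 8 others (right), each line a site coloured by gene. In the right panel no line is higher in aged cells; in the left panel 3 are.

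Within the 8 sites without an A, median per-cell editing was 1.87% in aged and 8.29% in young cells, and 0 of the 8 were higher in aged cells. Listed sites without an A had medians of 1.42% in aged and 9.45% in young cells, and 88 of 450 were higher in aged cells. Within the 11 sites after an A it was 8.35% in aged and 33.1% in young cells, and 3 of the 11 were higher. Listed sites after an A had medians of 12.9% in aged and 21.9% in young cells, and 35.2% were higher in aged cells. In aged cells per-cell editing lay under 5% at 10 of the 19 sites, against 45.3% of listed sites with a methylated aged cell, and in young cells at 2. All 3 measures were higher in aged cells at 3 of 19 sites, Ddx5 base 1247, Dhx15 base 315 and Hnrnpu base 538, against 21.9% of listed sites.

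The 3 largest increases in mean C-to-U, at Hnrnpu base 538, Dhx15 base 315 and Celf2 base 170, had the same 5 letters at the edited base, AACGG with the C edited. This run was picked after the values were seen, was read on the strand of the gene, and overlaps the DRAC motif. With a G after the C, these 3 sites do not match the full motif DRACH. It stood at the edited base of 8.59% of the 1956 listed sites. The spliced transcripts held AACGG at 5 places in Hnrnpu, 3 in Celf2, 2 in Dhx15 and 1 each in Ddx5 and Ddx17, of which these 3 are listed. A place that is not listed may still be methylated at both ages or not be covered. The G after the C was present at 7 of the 11 member sites that follow an A, against 29.1% of such listed sites in all regions. Among coding sites in DRAC, the base after the C was not a G at 3 of 7 member sites and at 273 of 553 listed sites. Among listed 3' UTR sites in DRAC it was not a G at 414 of 463, so the listed rate depends on the region.

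Related genes in the table were counted in 4 lists. Of all listed sites, 41.5% were higher in aged cells by mean, 75.4% by share and 31.9% by per-cell editing. Of listed coding sites these rates were 58.0%, 94.7% and 35.6%. Besides the members, the table held 4 DEAD and DEAH box helicases with 1 site each. Mean C-to-U was higher in aged cells at Ddx3x, a helicase of translation initiation (1.86% in aged and 0.721% in young cells), and at Ddx24 (0.369% in aged and 0.234% in young cells). It was lower at Ddx6, a helicase of messenger RNA decay and storage (0.323% in aged and 0.577% in young cells), and at Dhx36, which unwinds G-quadruplexes (0.0732% in aged and 0.122% in young cells). With the members, 8 of 12 helicase sites were higher by mean, 11 by share and 4 by per-cell editing.

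Of the hnRNP genes, 4 besides Hnrnpu were listed, with 7 sites. Of these sites 4 were higher in aged cells by mean, 6 by share and 0 by per-cell editing. The rates of all listed sites were 41.5%, 75.4% and 31.9%. Of the 7 sites, 6 were coding, and 94.7% of listed coding sites were higher by share. Hnrnpm had the widest gap in share, 13.5% of aged and 0.915% of young cells, with per-cell editing of 1.75% in aged and 16.6% in young cells. Hnrnph1 had a mean of 0.894% in aged and 0.432% in young cells, and Hnrnpa1 of 0.112% in aged and 0.316% in young cells. Of the 3 sites of Hnrnpa2b1, that with the largest difference had a mean of 0.0322% in aged and 0.0511% in young cells. Another Hnrnpa2b1 site was higher by mean in aged cells. With Hnrnpu the list's 14 sites had a median log2 ratio of 2.55 by share and -2.95 by per-cell editing.

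Of the CELF and other neuronal splicing regulators, 16 genes besides Celf2 held 56 sites. Of these 20 were higher in aged cells by mean, 49 by share and 7 of 55 by per-cell editing. The rates of all listed sites were 41.5%, 75.4% and 31.9%. Celf5, a relative of Celf2, had 7 sites, which went both ways by mean. At its 3' UTR site with the largest difference the mean was 2.37% in aged and 0.684% in young cells. Qk, the quaking RNA-binding protein of glia, had a mean of 2.10% in aged and 0.787% in young cells. Elavl3, a neuronal stabiliser of messenger RNA, had a mean of 0.411% in aged and 1.63% in young cells. Mbnl2, a muscleblind splicing regulator, had 0 methylated aged cells at 1 of its 2 sites, which allows a share of up to 0.355%, and a share of 1.30% in young cells. Of the core spliceosome and SR genes, 11 held 59 sites, of which 36 were higher by mean, 59 by share and 17 by per-cell editing. Of the 59 sites 56 were coding. Among listed coding sites 58.0% were higher by mean, 94.7% by share and 35.6% by per-cell editing. The site of largest difference was higher by mean in aged cells in 10 of these 11 genes, against 55.8% of all listed genes. Examples were Luc7l3 (14.5% in aged and 1.07% in young cells), Acin1 (4.53% in aged and 0.924% in young cells) and Luc7l2 (4.21% in aged and 0.938% in young cells).

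The genes whose listed sites were most like those of each member were found by the distance between gene medians of the log2 ratios of share and of per-cell editing, over the 2 ages and among genes with at least 3 sites. Hnrnpu was closest to Camk2a (13 sites, distance 0.21), Kif1a and Nrd1. Ddx5 was closest to Pnisr (14 sites, distance 0.06), Ccsap and Fnbp1l, and Celf2 to Celf5 (7 sites, distance 0.17), Snhg11 and Atp2b1. With a single site each, Ddx17 was closest to Pcdh9, B230334C09Rik and Hsp90b1, and Dhx15 to Ncam1, Dnm1 and Eif3a.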

How the data were processed

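Per the submitters' processing notes, the build was mm10 and STAR 2.7.5 was among the tools. Bullseye, a caller of C-to-U sites, is named in the series' design text, which describes sorted nuclei, while the sample protocols describe dissociated whole cells and split-pool barcoding of polyA RNA; the sample protocols were followed. The authors' deposited table gives, per site and age, the percent of cells methylated, the C-to-U fraction as a mean over all cells, the count of methylated cells, a log2 ratio, a p-value and an adjusted p-value. The test behind them and the read filters are not stated in the sources. C-to-U fractions are printed as percent, and the deposited log2 ratio (young over aged) was turned to aged over young. The percentages imply 846 aged and 2623 young cells at the listed sites, and per-cell editing was computed as the mean divided by the share.

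Positions were read as counted from 0 and are printed from 1. Read so, all 19 member sites have a C on the strand of the gene. Sequences come from GENCODE M21 transcripts. Regions were read from 1 transcript per site, chosen among those with an exon there by APPRIS principal status, then CCDS, then length. Of all listed sites, 14 in genes with no matching name were not placed. Shares carry exact Clopper-Pearson 95% intervals, and a count of 0 a limit of 3 counts. The split and the placing were tested on simulated data, with Python 3.11.15, pandas 2.3.3 and scipy 1.17.1. The members, lists and named genes (all 5 members with all their sites, up to 4 genes per list by largest difference, and the 3 most like genes per member) were chosen with earlier results of these data known. No test was added, since each age is 1 pooled value and cells are not replicates.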

Additional observations from a re-analysis of the deposited data

How the results depend on the processing

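The counts of 9, 18 and 3 of the 19 sites higher in aged cells, by mean C-to-U, share of methylated cells and per-cell editing (C-to-U within methylated cells), were recomputed on parts of the sites, so that a lower count can come from fewer sites. With at least 10 methylated cells in each age, with sites within 10 bases of each other counted as 1, with coding sites alone, and without the 3 Ddx5 sites whose surrounding bases occur in a pseudogene (a setting chosen after seeing the data), the counts stayed within 1.5 times. Sites whose C follows an A gave 11 of 11 higher by share. The 2 sites in the 3' UTR, both in Celf2, gave 0 by mean, 1 by share and 0 by per-cell editing. With the site of the largest difference standing for each gene, 5 of 5 genes were higher by mean and 5 by share. This leaves out 5 of 7 Hnrnpu and 3 of 4 Celf2 sites that were lower by mean. Leaving out a gene, also chosen after seeing the data, moved the count by mean to 5 of 13 without Ddx5 and the count by share to 11 of 12 without Hnrnpu. Reading the deposited positions as counted from 1 left a C at 3 of the 19 sites in place of 19. Wilson intervals lay apart at the same number of sites, 17, as exact ones, and 16 sites were coding under either choice of transcript.

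No paired analysis was possible because the table holds 1 pooled value per age and no value per library and no library of young cells. Leaving out a replicate in turn was not run, since it needs values per library. The 2 ages differ in the number of cells, 846 aged and 2623 young, and reads per cell are unknown; differences in coverage between the ages cannot be told apart from differences in methylation. Values that rest on few cells, such as the 7 young cells at Ddx5 base 1247 or the 9 at Hnrnpu base 836, are the least precise.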

Other observations

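Over the whole table, the 168 listed sites with AACGG at the edited C were higher in aged cells by mean C-to-U at 149 sites (88.7%), by share of methylated cells at 161 and by per-cell editing at 111. Their median per-cell editing was 62.7% in aged and 52.1% in young cells. Without the 3 sites in Hnrnpu, Dhx15 and Celf2, 146 of 165 were higher by mean. Among coding sites alone, 131 of 142 with AACGG were higher by mean, against 415 of all 640 coding sites whose C followed an A, those with AACGG included, and 47 of the 156 coding sites whose C did not. By share, 149 of those 156 were higher in aged cells, and median per-cell editing was 1.40% in aged and 11.1% in young cells. The run was picked after the values of the member sites were seen, the sites of a gene share its reads and expression, and no test was made. Reads per cell at these sites are unknown.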
